A study of Mus musculus with 24 samples.

Results

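The livers of fasted mice that lack Gpt2 in the liver were compared with the livers of fasted control mice by RNA sequencing. The comparison holds 11 of the 24 libraries of the study, 6 labelled as fasted knockout livers and 5 of the 6 labelled as fasted control livers, and was read over all expressed genes. The knockout mice carry a genotype label that names a liver-specific knockout of alanine transaminase 2, the enzyme encoded by Gpt2, and KO in the titles. The control mice are named Control in the genotype label, fl/fl in the titles and WT in the design text. Mice of both groups were fasted for 18 h, and 12 further libraries are labelled as livers of fed mice of the same genotypes. The sources used here give neither strain nor age, nor the floxed exons, nor the promoter or agent that drives the deletion. Nothing in the labels ties a library to an animal of its own, and the p-values therefore cover the variation among these libraries, which may be technical.

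The fasted knockout libraries held 18.4 to 55.3 M reads assigned to genes, and the 6 fasted control libraries 19.9 to 46.5 M. Control fasted replicate 4 was left out of this comparison, because its kidney tubule markers summed to 34218 CPM, against 2.19 to 36.5 CPM in the other fasted control libraries. CPM are gene counts per M counts of a library, scaled by TMM factors. The sum of control fasted replicate 4 was scaled by its library total only. In the 11 libraries used, albumin (Alb), a transcript of hepatocytes, stood at 49312 to 118341 CPM in knockout and 44429.6 to 96749 CPM in control livers. Pearson correlations of log2 CPM between pairs of these libraries lay between 0.931 and 0.976. Knockout fasted replicate 4 had the lowest mean correlation with the others, 0.945, and many values below are also given without it.

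Alanine transaminases move an amino group between alanine and glutamate and thereby interconvert alanine and pyruvate. Alanine released by muscle during a fast is a main amino acid substrate of hepatic gluconeogenesis, in which pyruvate is carboxylated in mitochondria and converted through phosphoenolpyruvate to glucose. Mammals have a mitochondrial enzyme, encoded by Gpt2, and a cytosolic enzyme, encoded by Gpt. The comparison asks how the transcripts of a fasted liver differ when the gene of the mitochondrial enzyme is deleted there.

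Gpt2 (ENSMUSG00000031700) lies on the forward strand of mouse chromosome 8 from 85492576 to 85527560 in GENCODE M21 (GRCm38). Its promoter is shown because this gene carries the result of the comparison. The 250 bases before its start in RefSeq (GRCm38.p6, forward strand, chr8:85492326-85492575) are given 5′ to 3′, with capitals for matches to the GC box GGGCGG, here on the reverse strand.
Gpt2 promoter: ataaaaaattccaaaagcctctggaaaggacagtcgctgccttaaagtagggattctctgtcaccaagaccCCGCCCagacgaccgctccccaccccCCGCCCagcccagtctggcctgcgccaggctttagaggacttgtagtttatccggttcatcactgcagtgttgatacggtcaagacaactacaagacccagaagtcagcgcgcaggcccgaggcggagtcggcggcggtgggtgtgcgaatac
The GC box matched at 2 places without overlap, and 32.7% of 32851 promoters of this length hold at least 1 match on either strand. The other motifs searched on both strands were the CREB motif TGACGTCA (1.55% of promoters), its core TGACG (17.8%), TGATGNAAT of C/EBP-ATF dimers (0.82%) and the FOXO motif TGTTTAC (3.17%). The glucocorticoid response element (0.0091% of promoters) and the nuclear receptor repeat DR1 (0.033%) were searched too. The letters of these 6 motifs do not occur in this window.

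Gpt2 fell in the fasted knockout livers to 16.0% of the control mean. Its level was 52.1, 123 and 148 CPM in the lowest, median and highest knockout library, against 698, 795, 727, 707 and 557 CPM in the control libraries. Every knockout library lay below every control library. The means were 112 ± 36.3 CPM in knockout (SD, n = 6) and 697 ± 86.7 CPM in control livers (SD, n = 5), a log2 fold change of -2.64 ± 0.19 (SE) with a 95% interval of -3.04 to -2.24. The adjusted p was 1.23e-08 by the quasi-likelihood test of edgeR, after Benjamini-Hochberg adjustment over 16757 genes. On log2 CPM, the exact permutation test (two-sided) gave p = 0.00433, which is the smallest it can give with 6 and 5 libraries.

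Reads were counted per gene, and which exons were deleted is not given, so the reads left in the knockout can include exons outside the deletion. In whole liver, the level of a transcript alone does not tell fewer cells of a type from less RNA per cell. This holds for Gpt2 and for every other transcript named here. Hepatocyte markers had a median log2 fold change of 0.06 over 20 tested genes in the same comparison, and the part of cell numbers was not tested. The highest level of Gpt2 among fasted knockout livers was that of replicate 1 and the lowest that of replicate 5.

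Fasting raised the Gpt2 transcript in both genotypes. It averaged 112 ± 36.3 CPM in fasted and 60.5 ± 11.3 CPM in fed knockout livers (SD, n = 6 each), a log2 fold change of 0.88 ± 0.18 (SE) with an adjusted p of 0.00221 by edgeR. In control livers it averaged 697 ± 86.7 CPM after fasting and 370.5 ± 51.9 CPM when fed (SD, n = 5 each), a log2 fold change of 0.91 ± 0.20 (SE) with an adjusted p of 0.00324 by edgeR. The difference between these responses was -0.03 on the log2 scale with a 95% interval of -0.57 to 0.52.

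Gpt, the gene of the cytosolic enzyme (chromosome 15, forward strand, 76695716 to 76699686), did not pass the test. It stood at 196, 309 and 417 CPM in the lowest, median and highest knockout library, against 256, 298, 361, 268 and 316 CPM in the control libraries. The groups overlapped, and the highest and the lowest library of all 11 were both knockout livers. Its log2 fold change was 0.06 ± 0.13 (SE) with a 95% interval of -0.20 to 0.33, and the two-sided exact permutation test gave p = 0.848. In fed livers Gpt averaged 316 ± 19.5 CPM in knockout (SD, n = 6) and 400.0 ± 55.5 CPM in control livers (SD, n = 5), with a log2 fold change of -0.34 ± 0.13 (SE) and an adjusted p of 0.41 by edgeR.

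**Figure D1:**
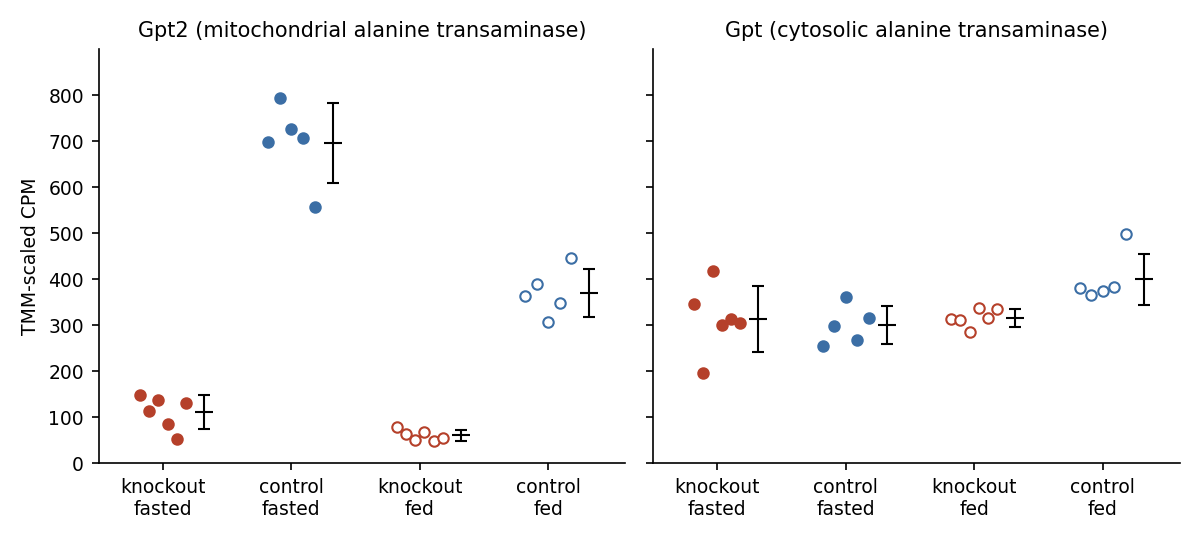
TMM-scaled CPM of Gpt2 and Gpt in each library (points, filled for fasted and open for fed livers, red for knockout and blue for control), with the mean and SD of each group beside them. Fasted knockout livers lie between 52.1 and 148 CPM for Gpt2, below all fasted control livers (557 to 795 CPM), while the fasted groups overlap for Gpt.

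Levels per length allow these genes to be set side by side. In RPKM (CPM per kilobase of gene length, here without TMM factors), the level of Gpt2 averaged 19.5 ± 6.44 RPKM in knockout (SD, n = 6) and 121 ± 13.6 RPKM in control livers (SD, n = 5). The level of Gpt averaged 177 ± 43.1 RPKM in knockout (SD, n = 6) and 170.2 ± 34.4 RPKM in control livers (SD, n = 5). Gpt2 made up 10.2% ± 3.57 of the summed RPKM of both genes in fasted knockout livers (SD, n = 6) and 42.0% ± 4.77 in fasted control livers (SD, n = 5). The sum itself was 197 ± 45.3 RPKM in knockout and 292 ± 40.9 RPKM in control livers, a log2 difference of -0.59 with p = 0.00866 in a two-sided exact permutation test. Because the sum contains the deleted gene, this p is not separate from the fall of Gpt2. In fed livers the share of Gpt2 was 5.59% ± 0.939 in knockout (SD, n = 6) and 22.3% ± 1.66 in control livers (SD, n = 5).

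Gpt2 was the only gene called between the genotypes in fasted livers by edgeR. The call rule was an adjusted p under 0.05, and 1 of 16757 genes tested (0.00597%) met it. The next smallest adjusted p in edgeR's test was 0.34. At an unadjusted p under 0.05 there were 672 genes (4.01%), of which 457 stood higher in knockout livers (2.73%) and 215 lower (1.28%). Over all genes tested, the log2 fold change had a median of 0.01.

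Precision depended on the level of a gene. Among the 9320 genes whose log2 CPM averaged 2 or more, 93.8% had a 95% interval that lay wholly within a 2-fold change in either direction. The median standard error of these genes was 0.17 in log2, and 18 of them had a log2 fold change beyond 1 in either direction. Of all genes tested, including those of low level, 56.3% had such an interval.

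**Figure D2:**
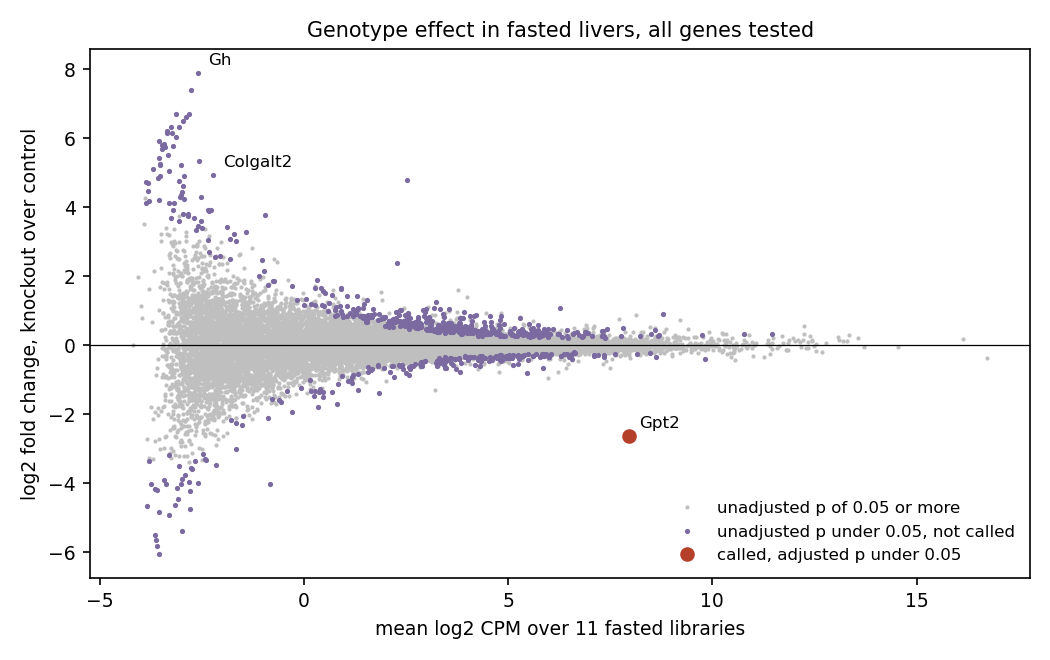
Log2 fold change of knockout over control in fasted livers against mean log2 CPM, with 1 point per gene tested. Gpt2 at -2.64 is the only gene called by edgeR, and the spread of the others is widest at low levels.

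Genes near Gpt2 were looked at on their own. Within 500 kb on either side, 19 other genes were tested and 0 were called. Their log2 fold changes lay between -1.06 and 0.70, ends that belonged to Mylk3 and Neto2 with standard errors of 1.39 and 0.87. The smallest unadjusted p belonged to Phkb, which encodes a regulatory subunit of phosphorylase kinase, the activator of glycogen breakdown. Phkb stood at 13.0, 14.8 and 21.5 CPM in the lowest, median and highest knockout library, against 13.9, 13.0, 10.02, 13.2 and 12.2 CPM in the control libraries. The groups overlapped, and its log2 fold change of 0.39 ± 0.15 (SE) had an unadjusted p of 0.0144 and an adjusted p of 1 by edgeR.

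The pathway from alanine to glucose showed no other called gene. The list of alanine, pyruvate and gluconeogenesis held 34 genes, all tested, and Gpt2 was its only call. Its median log2 fold change was 0.04, against 0.01 over all genes, and 25 of the 34 genes had a 95% interval within a 2-fold change. At an unadjusted p under 0.05 the list held Slc2a2 on the higher side and Gpt2 on the lower.

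Amino acid carriers come first in this pathway, and none passed the test. Slc38a3 and Slc38a4, sodium-coupled carriers of small neutral amino acids in hepatocytes, had log2 fold changes of 0.04 ± 0.14 and 0.10 ± 0.11 (SE). Slc38a2, a carrier known to be induced when amino acids are scarce, averaged 119 ± 20.3 CPM in knockout (SD, n = 6) and 107 ± 20.5 CPM in control livers (SD, n = 5). Slc38a1 and Slc7a8 were low, at means of 1.004 and 3.74 CPM in knockout livers and of 1.45 and 2.46 CPM in control livers.

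Among the other transaminases of the pathway, Agxt and Agxt2, whose enzymes use alanine as an amino donor to glyoxylate, had log2 fold changes of -0.10 ± 0.13 and 0.04 ± 0.18 (SE). Got2, the mitochondrial aspartate transaminase, averaged 464 ± 71.3 CPM in knockout (SD, n = 6) and 443 ± 63.7 CPM in control livers (SD, n = 5). Got1, its cytosolic counterpart, averaged 292 ± 126 CPM in knockout (SD, n = 6) and 352 ± 92.4 CPM in control livers (SD, n = 5), with a 95% interval of -0.91 to 0.37 for the log2 fold change. Glud1, which releases ammonia from the glutamate that these enzymes form, had a log2 fold change of 0.08 ± 0.11 (SE).

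Pyruvate entry and the first steps to phosphoenolpyruvate follow. Mpc1 and Mpc2, the subunits of the mitochondrial pyruvate carrier, had log2 fold changes of -0.05 ± 0.14 and -0.08 ± 0.13 (SE). Pcx, pyruvate carboxylase, averaged 1019 ± 167 CPM in knockout (SD, n = 6) and 992 ± 215 CPM in control livers (SD, n = 5). Pck1, the cytosolic phosphoenolpyruvate carboxykinase, stood at 2145, 3845 and 4425 CPM in the lowest, median and highest knockout library, against 3552, 4129, 5006, 3235 and 3767 CPM in the control libraries. Its groups overlapped, with 2 knockout libraries below the lowest control, and the log2 fold change was -0.14 ± 0.26 (SE). Pck2, the mitochondrial form, was low, at 3.25 ± 1.53 CPM in knockout (SD, n = 6) and 2.09 ± 1.39 CPM in control livers (SD, n = 5).

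The malate dehydrogenases Mdh1 and Mdh2 had log2 fold changes of 0.04 ± 0.11 and -0.11 ± 0.12 (SE). The mitochondrial carriers of oxoglutarate, dicarboxylates and citrate, Slc25a11, Slc25a10 and Slc25a1, had log2 fold changes of -0.17 ± 0.12, 0.02 ± 0.13 and -0.18 ± 0.11 (SE). None of these genes passed the test.

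At the end of the pathway, the glucose carrier and the catalytic subunit of glucose-6-phosphatase had fold changes of opposite sign. Slc2a2 encodes GLUT2, through which glucose enters and leaves the hepatocyte. It stood at 157, 185 and 209.9 CPM in the lowest, median and highest knockout library, against 138, 198, 106, 116 and 136 CPM in the control libraries. Of the 6 knockout libraries 2 lay above the highest control. Its log2 fold change of 0.42 ± 0.12 (SE) had an unadjusted p of 0.00159 and an adjusted p of 0.69 by edgeR.

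G6pc, the catalytic subunit of glucose-6-phosphatase, stood at 95.2, 125 and 286 CPM in the lowest, median and highest knockout library, against 78.4, 229, 328, 399 and 262 CPM in the control libraries. All knockout libraries lay within the range of the controls, and the log2 fold change of -0.67 ± 0.39 (SE) had a 95% interval of -1.50 to 0.16. Slc37a4, the carrier that brings glucose-6-phosphate to this enzyme, averaged 172 ± 48.0 CPM in knockout (SD, n = 6) and 152 ± 29.3 CPM in control livers (SD, n = 5). It stood at 268 CPM in knockout fasted replicate 4 and at 135 to 164 CPM in the other knockout libraries. Without replicate 4 its log2 fold change was 0.002 ± 0.13 (SE). Fbp1, fructose-1,6-bisphosphatase, had a log2 fold change of 0.01 ± 0.12 (SE).

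Genes of lactate and glycolytic flux spanned wide ranges within each group. Ldha, a lactate dehydrogenase subunit, stood at 745 to 2573 CPM in knockout and 888 to 1815 CPM in control livers. Pdk4, a kinase that inactivates pyruvate dehydrogenase, was at 85.8 CPM in knockout fasted replicate 4 and at 3.57 to 13.0 CPM in the other 5 knockout libraries, against 6.21 to 18.0 CPM in the control libraries. Its log2 fold change was 0.94 ± 0.63 (SE) with that library and -0.42 ± 0.31 (SE) without it, so that its sign rests on 1 library. The other members shown, Ldhb, Pdk2, Pklr (liver pyruvate kinase), Gckr and Pfkfb1, had log2 fold changes of 0.56, 0.13, 0.42, -0.06 and -0.13 and did not pass the test. Pklr was at 0.05 without knockout fasted replicate 4.

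Neighbouring amino acid pathways held no call beyond Gpt2. Among 57 tested genes of amino acid breakdown the median log2 fold change was 0.02, 56 had a 95% interval within a 2-fold change, and 1 reached an unadjusted p under 0.05. This was Dbt, a subunit of the branched-chain keto acid dehydrogenase complex, which averaged 59.4 ± 11.7 CPM in knockout (SD, n = 6) and 48.0 ± 3.16 CPM in control livers (SD, n = 5). Among 18 tested genes of the transaminase list, which holds Gpt2, the median was -0.06. Gfpt1, the entry enzyme of the hexosamine pathway, had a log2 fold change of 0.55 ± 0.20 (SE), and Kyat1, kynurenine aminotransferase 1, one of -0.26 ± 0.12 (SE), both at an unadjusted p under 0.05. Without knockout fasted replicate 4 these were 0.38 ± 0.19 and -0.23 ± 0.13 (SE), and neither reached that p.

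The 18 tested genes of the urea cycle and glutamine handling had a median log2 fold change of 0.02, with 17 of 18 intervals within a 2-fold change and 0 called. Members ran from -4.02 to 0.18, and the member at -4.02 was not among those 17. At an unadjusted p under 0.05, 0 stood higher and 1 lower (Slc25a2), against 2.73% and 1.28% of all genes. Slc25a13, the aspartate-glutamate carrier citrin, averaged 242 ± 24.9 CPM in knockout (SD, n = 6) and 218 ± 10.3 CPM in control livers (SD, n = 5). Otc and Ass1, enzymes of the cycle, had log2 fold changes of 0.18 ± 0.12 and 0.17 ± 0.18 (SE), and Ass1 was at 0.01 without knockout fasted replicate 4.

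Over 42 tested targets of ATF4, the transcription factor that answers amino acid shortage, the median log2 fold change was -0.01, with 1 gene at an unadjusted p under 0.05 in each direction. Asns, asparagine synthetase and a standard target, averaged 4.80 ± 3.29 CPM in knockout (SD, n = 6) and 5.96 ± 3.94 CPM in control livers (SD, n = 5). Ero1l, an oxidase of the endoplasmic reticulum, had a log2 fold change of 0.81 ± 0.27 (SE) and an unadjusted p of 0.00482, and of 0.41 ± 0.21 (SE) with an unadjusted p of 0.0660 without knockout fasted replicate 4. The hormones Fgf21 and Gdf15, which the liver secretes under stress, had log2 fold changes of 0.17 ± 0.81 and 0.60 ± 0.67 (SE). Without knockout fasted replicate 4 these were -0.56 ± 0.79 and 0.21 ± 0.67 (SE), so that the sign for Fgf21 rests on that library.

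Among 26 gluconeogenic regulators and targets of insulin or FOXO factors the median log2 fold change was 0.03 and 0 were called. Gcgr, the glucagon receptor, averaged 267 ± 48.2 CPM in knockout (SD, n = 6) and 319.6 ± 46.5 CPM in control livers (SD, n = 5), with an unadjusted p of 0.0406. Without knockout fasted replicate 4 its log2 fold change was -0.18 ± 0.12 (SE), with an unadjusted p of 0.122 by edgeR. Pik3r1, a regulatory subunit of phosphoinositide 3-kinase, and Foxo4, a forkhead factor, had log2 fold changes of 0.45 ± 0.16 and -0.33 ± 0.14 (SE). Without that library these were 0.36 ± 0.16 and -0.27 ± 0.15 (SE).

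Genes of fatty acid use had medians just below 0. The 37 targets of PPARA, the nuclear receptor of the fasting response, had a median log2 fold change of -0.08, with 0 genes at an unadjusted p under 0.05 in either direction. The 29 genes of ketogenesis and fatty acid oxidation in mitochondria had a median of -0.07, and 28 of their intervals lay within a 2-fold change. Eci1, an enoyl-CoA isomerase of this pathway, averaged 149.9 ± 17.8 CPM in knockout (SD, n = 6) and 181 ± 14.7 CPM in control livers (SD, n = 5), with an unadjusted p of 0.0313. Without knockout fasted replicate 4 its log2 fold change was -0.21 ± 0.12 (SE), with an unadjusted p of 0.0891 by edgeR. Cd36, a fatty acid carrier, Acot1, a cytosolic acyl-CoA thioesterase, and Ppara itself had log2 fold changes of 0.47 ± 0.25, -0.53 ± 0.33 and 0.20 ± 0.14 (SE).

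Lipid synthesis held 0 called genes in either direction. The 34 tested genes of fatty acid and triglyceride synthesis had a median of -0.07, with members from -0.53 to 5.23. At an unadjusted p under 0.05, 2 stood higher and 1 lower, against 2.73% and 1.28% of all genes. Acaca, acetyl-CoA carboxylase 1, Mlxipl, the carbohydrate response factor ChREBP, and Elovl6, a fatty acid elongase, had log2 fold changes of 0.48 ± 0.20, -0.25 ± 0.12 and 0.33 ± 0.18 (SE), and Acaca one of 0.19 ± 0.14 (SE) without knockout fasted replicate 4. The 28 tested genes of cholesterol synthesis and uptake had a median of -0.28, with 5 of 28 above 0 and 0 at an unadjusted p under 0.05. Acat2, a thiolase, and Lss, lanosterol synthase, had log2 fold changes of -0.29 ± 0.16 and -0.51 ± 0.46 (SE). The cholesterol median rested on single libraries. It was 0.13 without control fasted replicate 1, -0.15 without knockout fasted replicate 4 and -0.42 without control fasted replicate 3.

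Across all 46 lists, 29 had a median log2 fold change within 0.1 of 0, and the only member called was Gpt2, in the 2 lists that hold it. The highest medians among lists of at least 20 tested genes belonged to markers of Kupffer cells and macrophages (0.56) and of sinusoidal endothelium (0.38).

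**Figure D3:**
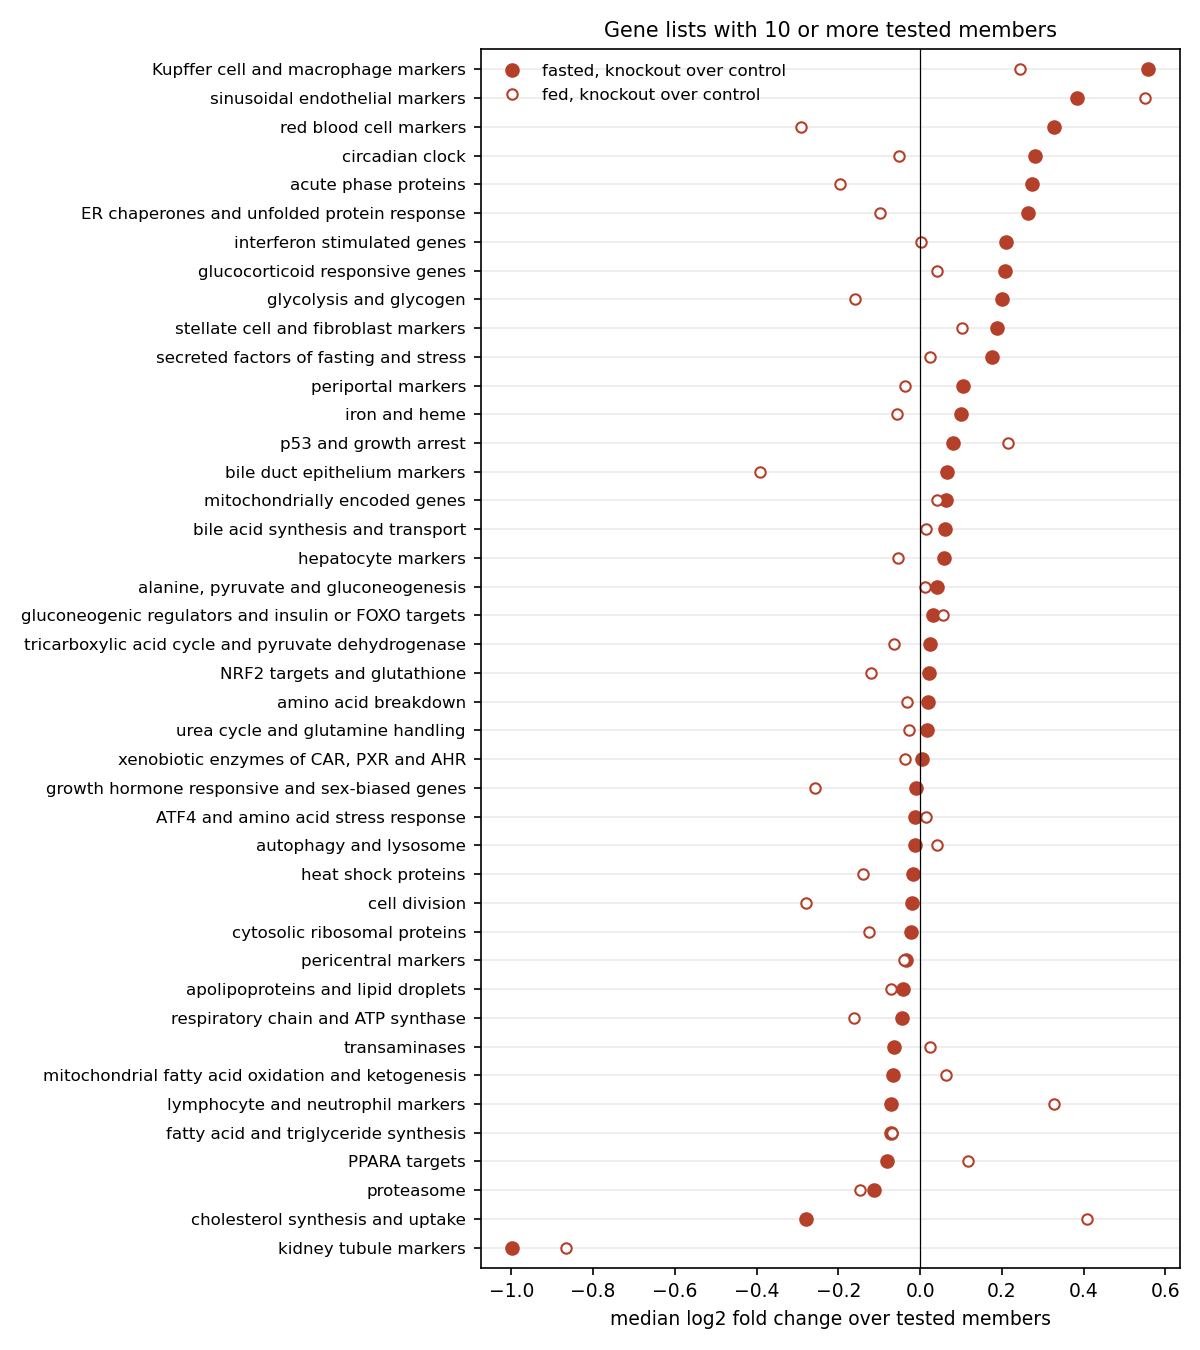
Median log2 fold change of knockout over control for each list with 10 or more tested members, in fasted (filled points) and in fed livers (open points). Markers of Kupffer cells and of sinusoidal endothelium lie to the right of 0 in both feeding states, and the list of alanine, pyruvate and gluconeogenesis lies at 0.04 in fasted livers.

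Kupffer cells are the resident macrophages of the liver and sit in the sinusoids beside the fenestrated endothelium. Of 22 macrophage markers 21 were tested, and 18 had a log2 fold change above 0. At an unadjusted p under 0.05, 10 of 21 stood higher in knockout livers and 0 lower, against 2.73% and 1.28% of all genes, and 0 were called. The libraries of the groups did not overlap for 3 of them, Csf1r, C1qc and C1qa, all higher, against 0.31% of all genes. This list, like the others, was chosen with earlier results of these data known, and its members can vary together. Such counts beside the share of all genes are therefore not a test.

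Csf1r, the receptor that macrophages need to survive, stood at 23.5, 39.0 and 49.6 CPM in the lowest, median and highest knockout library, against 22.9, 20.8, 22.6, 20.6 and 17.8 CPM in the control libraries. C1qc, a chain of the complement component C1q, stood at 26.6, 32.2 and 40.2 CPM in the lowest, median and highest knockout library, against 22.6, 21.2, 20.7, 22.9 and 21.7 CPM in the control libraries. Neither gene overlapped between groups, and knockout fasted replicate 1 was the lowest knockout library for both. Their log2 fold changes were 0.85 ± 0.22 and 0.60 ± 0.15 (SE), with adjusted p of 0.62 and 0.56 by edgeR. Mpeg1 (perforin-2), Cd5l, which macrophages secrete, and C1qa, another C1q chain, had log2 fold changes of 0.86 ± 0.21, 0.80 ± 0.19 and 0.56 ± 0.17 (SE).

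The summed level of the 22 macrophage markers was 259, 361 and 486 CPM in the lowest, median and highest knockout library, against 252, 267, 248, 279 and 234 CPM in the control libraries. The control libraries lay below 5 of the 6 knockout libraries. In fed livers the sum was 384 ± 51.1 CPM in knockout (SD, n = 6) and 331 ± 59.2 CPM in control livers (SD, n = 5).

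Markers of sinusoidal endothelium stood on the same side. All 22 were tested, 21 had a log2 fold change above 0, and 8 stood higher at an unadjusted p under 0.05, with 0 lower and 0 called. Over all genes 51.3% lay above 0, 2.73% stood higher at that p and 1.28% lower. As for the macrophage markers, these counts are not a test. Cdh5, the adhesion protein VE-cadherin of endothelial junctions, stood at 16.5, 22.6 and 29.6 CPM in the lowest, median and highest knockout library, against 16.7, 14.3, 10.02, 12.3 and 8.14 CPM in the control libraries. Of the 6 knockout libraries 4 lay above the highest control, and the log2 fold change was 0.86 ± 0.20 (SE) with an adjusted p of 0.46 by edgeR.

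Mrc1, the mannose receptor, Fcgr2b, an Fc receptor, and Flt1, a VEGF receptor, are expressed by these cells. Their log2 fold changes were 0.68 ± 0.19, 0.47 ± 0.17 and 0.57 ± 0.24 (SE), and Flt1 was at 0.36 without knockout fasted replicate 4. The summed level of the 22 endothelial markers was 488, 684 and 727 CPM in the lowest, median and highest knockout library, against 515, 606, 449, 519 and 458 CPM in the control libraries. The groups overlapped. Leaving out single libraries moved the number of markers higher at an unadjusted p under 0.05 between 3, without knockout fasted replicate 2, and 13, without knockout fasted replicate 1.

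Other cells of the liver were also read from their markers. The 23 markers of stellate cells and fibroblasts had a median log2 fold change of 0.19, and 18 of them lay above 0. At an unadjusted p under 0.05, 2 stood higher and 0 lower, against 2.73% and 1.28% of all genes. Members ran from -3.38 to 2.95, and the lowest was Timp1, a gene of low level with a mean log2 CPM of -2.80. Reln, made by stellate cells, averaged 29.7 ± 6.86 CPM in knockout (SD, n = 6) and 20.9 ± 7.37 CPM in control livers (SD, n = 5), and Col4a1, a basement membrane collagen, had a log2 fold change of 0.44 ± 0.23 (SE), and of 0.21 ± 0.19 (SE) without knockout fasted replicate 4. Markers of lymphocytes and neutrophils had a median of -0.07 over 23 tested genes, and their summed level was 17.6 to 40.7 CPM in knockout and 19.9 to 29.6 CPM in control livers. Hepatocyte markers had a median of 0.06 over 20 genes. Kidney tubule markers summed to 2.63 to 7.87 CPM in knockout and 2.19 to 36.5 CPM in control livers. No marker of Kupffer cells, endothelium or stellate cells was at 0 in all 11 libraries, and the part of cell numbers in these values was not tested.

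**Figure D4:**
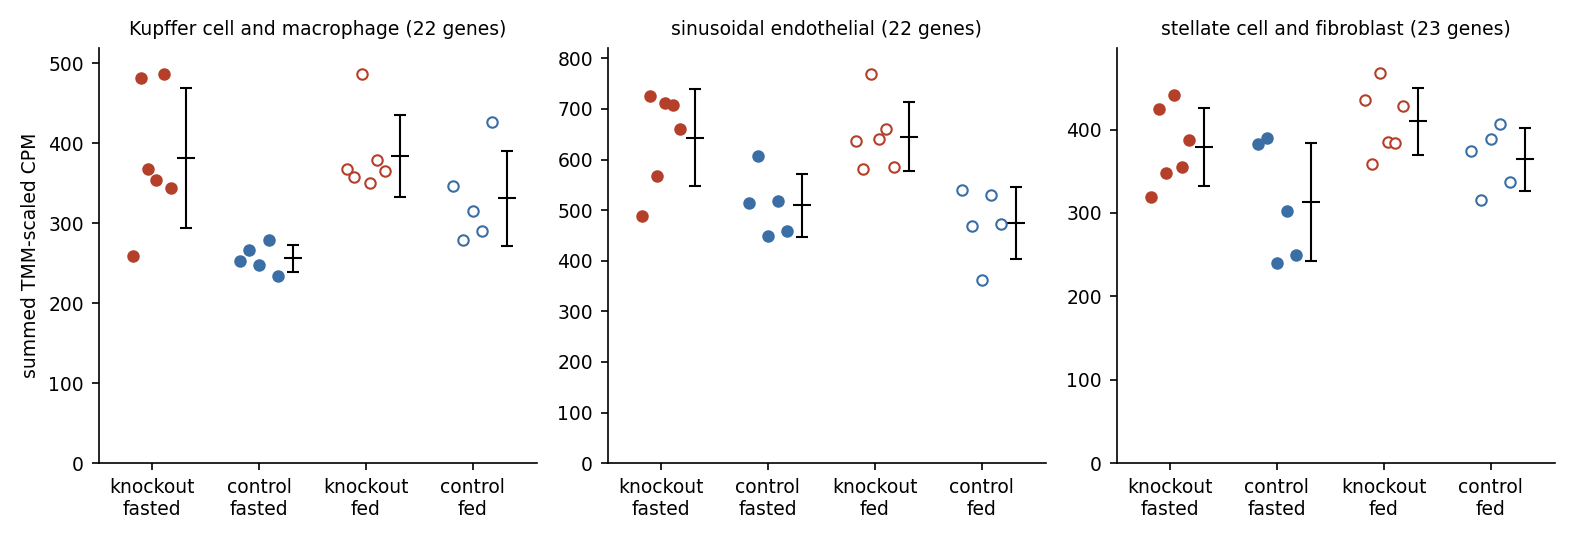
Summed TMM-scaled CPM of the markers of Kupffer cells and macrophages, sinusoidal endothelium, and stellate cells and fibroblasts in each library (points) of fasted and fed knockout and control livers, with the mean and SD of each group. For the macrophage markers 5 of 6 fasted knockout livers lie above all fasted control livers, which lie between 234 and 279 CPM.

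The 20 genes with the smallest p were led by Gpt2, and the other 19 did not pass the adjusted threshold by edgeR. DESeq2 called Colgalt2 and Gh among them. Of the 19, 17 had a log2 fold change above 0 and 2 below. Over all genes 51.3% lay above 0, and at an unadjusted p under 0.05, 2.73% stood higher and 1.28% lower. The 19 were picked by their p, so these counts are not a test. Msn encodes moesin, which links actin to the cell membrane. It stood at 13.5, 17.6 and 24.3 CPM in the lowest, median and highest knockout library, against 11.6, 11.3, 9.82, 10.47 and 10.9 CPM in the control libraries. The groups did not overlap, and its log2 fold change was 0.79 ± 0.17 (SE) with an adjusted p of 0.34 by edgeR.

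Aqp1, a water channel, Clec14a, a lectin of endothelial cells, Col14a1, a collagen, and Samhd1, a nucleotide hydrolase, had log2 fold changes of 0.48, 1.03, 0.71 and 0.65. Il13ra1, a receptor chain for interleukin 13, stood at 7.41 to 22.7 CPM in knockout and 5.41 to 9.61 CPM in control livers, with a log2 fold change of 1.06 ± 0.24 (SE). Hmox1, heme oxygenase 1, stood at 8.02, 11.8 and 33.9 CPM in the lowest, median and highest knockout library, against 8.49, 5.64, 5.87, 6.37 and 5.13 CPM in the control libraries. The highest library was knockout fasted replicate 4, and the log2 fold change was 1.25 ± 0.29 (SE) with it and 0.82 ± 0.23 (SE) without it.

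The genes below 0 among the 19 were Mettl27, a methyltransferase-like gene, and Aifm3, a relative of the apoptosis-inducing factor. Mettl27 stood at 8.29, 10.9 and 13.1 CPM in the lowest, median and highest knockout library, against 20.4, 13.1, 16.9, 20.9 and 14.5 CPM in the control libraries. Every knockout library lay below every control library, although the highest knockout and the lowest control were equal to 3 digits. The log2 fold changes of Mettl27 and Aifm3 were -0.68 ± 0.17 and -0.80 ± 0.21 (SE), with adjusted p of 0.56 and 0.62 by edgeR.

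Dnajb9, a chaperone that holds back the stress sensor IRE1, stood at 26.3, 32.4 and 50.6 CPM in the lowest, median and highest knockout library, against 25.2, 21.8, 17.6, 20.6 and 22.2 CPM in the control libraries. The groups did not overlap, and its log2 fold change was 0.74 ± 0.19 (SE) with an adjusted p of 0.62 by edgeR. Ak4, a mitochondrial adenylate kinase, and Osbpl5, a lipid transfer protein, had log2 fold changes of 0.63 ± 0.17 and 1.66 ± 0.44 (SE), and of 0.45 and 1.17 without knockout fasted replicate 4. Of the 28 tested genes of chaperones and the unfolded protein response, 26 lay above 0, with a median of 0.26 and 5 higher at an unadjusted p under 0.05, against 51.3% and 2.73% of all genes. Edem1, Xbp1 and Sel1l were among these, with log2 fold changes of 0.31, 0.27 and 0.27. Without knockout fasted replicate 4 the median was 0.12, and 1 gene reached an unadjusted p under 0.05, as it also did without control fasted replicate 6. There were 9 without knockout fasted replicate 3 and as many without knockout fasted replicate 6. Sel1l was at 0.14 without knockout fasted replicate 4.

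**Figure D5:**
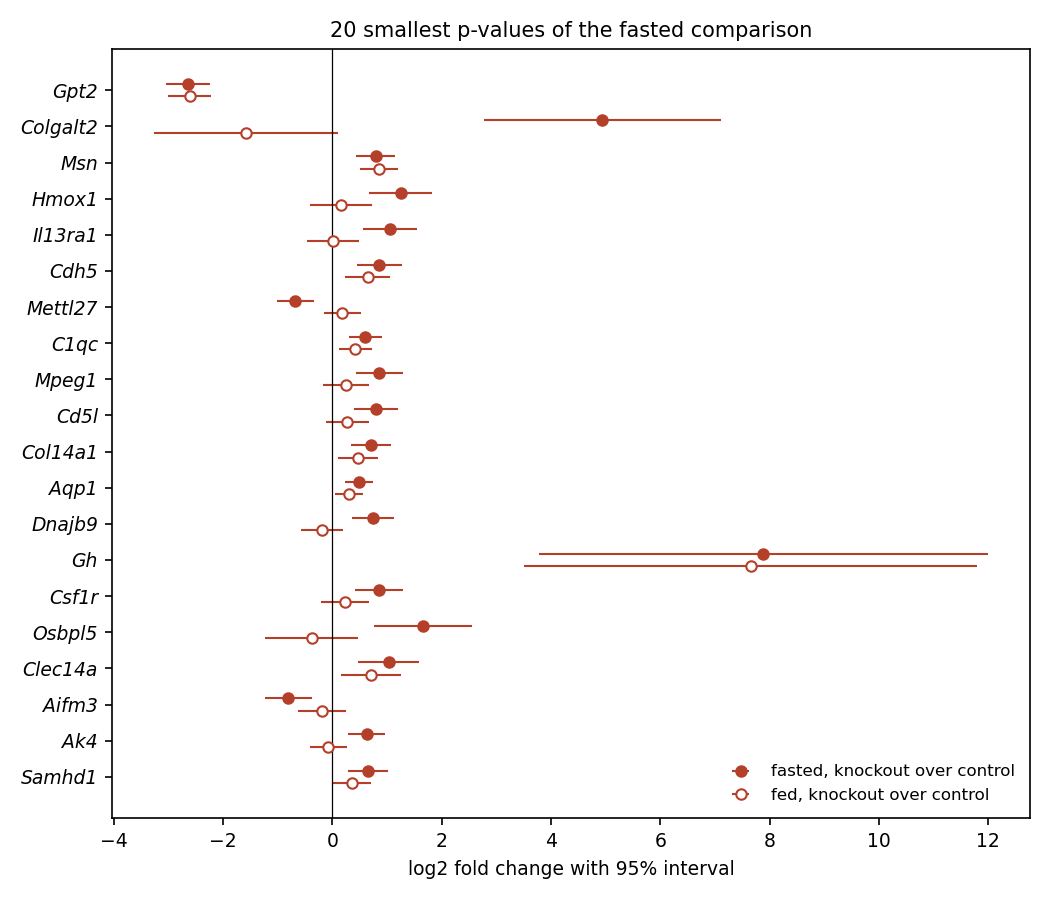
Log2 fold change of knockout over control with its 95% interval for the genes of smallest p in fasted livers, in fasted (filled points) and in fed livers (open points). Gpt2 lies at -2.64 in fasted and -2.61 in fed livers, and Colgalt2 lies at 4.94 in fasted and at -1.58 in fed livers. The fitted values of Gh and of Colgalt2 in fasted livers depend on the prior count, since control reads were 0 and 3.

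Genes whose groups did not overlap numbered 82 (0.489% of those tested), 52 higher (0.31%) and 30 lower (0.179%) in knockout livers. Of the higher ones 27 had a log2 CPM that averaged 2 or more. Among these were Slc26a10 of an anion carrier family, Lbh, a transcription cofactor, and Tsc22d1, a leucine zipper protein, with log2 fold changes of 1.03, 0.90 and 0.58. Slc26a10 stood at 6.51, 7.75 and 8.41 CPM in the lowest, median and highest knockout library, against 5.48, 2.27, 1.66, 5.50 and 3.45 CPM in the control libraries.

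On the lower side 10 genes of that level did not overlap, Gpt2 and Mettl27 among them. Bend7, Ppp5c (a protein phosphatase), Mrpl46 (a mitochondrial ribosomal protein), Dhx30 (an RNA helicase), Cep250 (a centrosome protein) and Exosc7 (an exosome subunit) had log2 fold changes between -0.46 and -0.32. Psmd13, a proteasome subunit, had one of -0.15 ± 0.10 (SE). Gpt2 alone of these genes passed the adjusted threshold by edgeR.

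Gh, the gene of growth hormone, which the pituitary makes, had reads in knockout libraries only. In fasted knockout livers 97, 34, 76, 0, 0 and 8 reads were counted in replicates 1 to 6, against 0 reads in each of the 5 fasted control libraries. The 215 knockout reads correspond to a level at least 53.9-fold higher than the 3 reads that a count of 0 allows over the control group, for counting error only.

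In fed livers Gh had 14, 0, 19, 64, 10 and 32 reads in the knockout libraries and 0 reads in all 5 control libraries. Over both feeding states 9 of 12 knockout libraries held reads, and 0 of 11 control libraries did, control fasted replicate 4 included. Among 2505 genes with reads in knockout but 0 in all control libraries, Gh alone was found in 9 or more knockout libraries. Its adjusted p in edgeR's test was 0.62 in fasted and 0.21 in fed livers. The list of growth hormone responsive and sex-biased genes had a median log2 fold change of -0.01 over 38 tested genes.

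Colgalt2, which encodes a collagen galactosyltransferase, was also near the detection limit. Its 158 reads in fasted knockout livers and 3 reads in fasted control livers gave a ratio of 39.6 with a 95% counting interval of 13.3 to 194. Every knockout library lay above every control library, at 0.218 to 1.404 CPM in knockout and 0 to 0.0537 CPM in control livers. In fed livers its log2 fold change was -1.58 ± 0.83 (SE), and neither comparison passed edgeR's test, with adjusted p of 0.34 in fasted and 0.60 in fed livers.

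Of 32 acute phase genes 31 had a log2 fold change above 0, with a median of 0.27 and 3 higher at an unadjusted p under 0.05, against 51.3% and 2.73% of all genes. These were Cp (ceruloplasmin), Fgg and Fga (fibrinogen chains), at 0.31, 0.33 and 0.31 in log2, and Serpina3n, an inducible protease inhibitor, had a log2 fold change of 0.74 ± 0.36 (SE). Without knockout fasted replicate 4 Fgg, Fga and Serpina3n were at 0.21, 0.21 and 0.28. Without that library the median was 0.09 with 1 gene at an unadjusted p under 0.05, and without knockout fasted replicate 3 there were 9. Lcn2, an inducible siderophore-binding protein, stood at 167 CPM in replicate 4 and at 7.15 to 15.9 CPM in the other knockout libraries, against 6.04 to 28.8 CPM in control livers.

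The same library was high for other inducible genes. Tgm2, a transglutaminase, stood at 419 CPM in replicate 4 and at 51.6 to 88.1 CPM in the other knockout libraries, against 52.9 to 68.9 CPM in control livers. Cdkn1a, a cell cycle inhibitor, stood at 162 CPM in replicate 4 and at 2.74 to 38.4 CPM in the others, against 4.91 to 31.9 CPM in control livers. Serpina7, a thyroxine carrier, was at 24.4, 60.0 and 53.01 CPM in knockout replicates 1, 2 and 4 and at 0.273 to 2.74 CPM in the other 3, against 0.682 to 9.59 CPM in control livers. None of these passed the adjusted threshold, and Tgm2 and Serpina7 were chosen after their values were seen.

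Over 37 interferon stimulated genes the median log2 fold change was 0.21, and Psmb8 (an immunoproteasome subunit), Gbp7 (a guanylate-binding protein) and Ifit1 (an antiviral protein) had log2 fold changes of 0.69 ± 0.21, 0.61 ± 0.21 and 0.50 ± 0.22 (SE). The interferon median lay between 0.12, without knockout fasted replicate 5, and 0.30, without knockout fasted replicate 3. Over 32 genes of glycolysis and glycogen the median was 0.20, and 0.05 without knockout fasted replicate 4. Pkm (muscle-type pyruvate kinase), Gbe1 (glycogen branching enzyme) and Ugp2 (UDP-glucose pyrophosphorylase) had log2 fold changes of 0.98, 0.47 and 0.37, and Pkm and Gbe1 were at 0.49 and 0.21 without that library. Over 22 clock genes the median was 0.28, with Hlf, a clock output factor, at 0.28 ± 0.13 and Ciart, a clock repressor, at 0.95 ± 0.49 (SE). The clock median was 0.14 without control fasted replicate 5 and 0.17 without knockout fasted replicate 3. None of these genes passed the adjusted threshold.

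The same genotypes in fed livers, which share no library with the fasted ones, also gave Gpt2 as the only call by edgeR, 1 of 16757 genes (0.00597%). Leaving out single libraries moved this count to 13 without control fed replicate 4, 8 without knockout fed replicate 4, 5 without control fed replicate 2 and 3 without knockout fasted replicate 6. It was 2 without control fasted replicate 5, knockout fed replicate 2 or knockout fasted replicate 1, 2 or 4, and 68 by DESeq2. Gpt2 had a log2 fold change of -2.61 ± 0.19 (SE) there. At an unadjusted p under 0.05 there were 1509 genes (9.01%), 900 higher (5.37%) and 609 lower (3.63%). Of the 17 genes above 0 among the 20 of smallest p in fasted livers, 13 were also above 0 in fed livers, and 7 of them had an unadjusted p under 0.05 there. The libraries of the fed groups did not overlap for 197 genes (1.18%), 117 higher (0.698%) and 80 lower (0.477%). Msn had a log2 fold change of 0.85 ± 0.17, Cdh5 of 0.64 ± 0.20, C1qc of 0.42 ± 0.15, Csf1r of 0.23 ± 0.21 and Hmox1 of 0.16 ± 0.28 (SE) in fed livers.

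Endothelial markers had a median of 0.55 in fed livers with 13 of 22 higher at an unadjusted p under 0.05, and macrophage markers one of 0.25 with 3 of 21. Over all genes in fed livers, 5.37% stood higher and 3.63% lower at that p. Acute phase genes had a median of -0.19 in fed livers, with 7 lower and 0 higher, and genes of cholesterol synthesis and uptake one of 0.41. PPARA targets had a median of 0.12 with 9 higher and 0 lower. Whether these medians differ between feeding states was not tested.

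Gene by gene, the difference between the genotype effects in fasted and fed livers was called for 1 of 16757 genes (0.00597%), Zfp871, a zinc finger gene on chromosome 17. At an unadjusted p under 0.05 there were 786 genes (4.69%), 362 with a higher (2.16%) and 424 with a lower (2.53%) genotype effect in fasted livers. In fasted livers Zfp871 stood at 11.1, 15.7 and 21.5 CPM in the lowest, median and highest knockout library, against 29.1, 20.2, 24.0, 24.4 and 29.5 CPM in the control libraries. In fed livers it stood at 27.6, 31.8 and 43.7 CPM in the lowest, median and highest knockout library, against 18.3, 26.3, 11.9, 19.7 and 18.4 CPM in the control libraries. After fasting 4 of the 6 knockout libraries lay below all controls, and when fed all 6 lay above them. The log2 fold change was -0.61 ± 0.17 (SE) in fasted and 0.81 ± 0.17 (SE) in fed livers, neither called, and their difference was -1.42 ± 0.25 (SE) with an adjusted p of 0.0284 by edgeR. In fits without 1 library each, the call was kept in 9 of 22, with adjusted p between 0.00392 and 0.112 by edgeR.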

How the data were processed

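RNA of liver was sequenced after an oligo-dT step, per the labels' protocols. Per the submitters' processing notes, bcl2fastq, STAR 2.5.1a, Subread featureCounts 1.4.6-p5 and the GRCm38 build were used. The sources used here do not state the strand setting or the annotation release, so overlapping genes on opposite strands may share reads. The authors deposited, per the file headers, raw counts per gene, CPM (count divided by the library total) and RPKM (CPM per kilobase of gene length). The deposited CPM and RPKM were checked against the counts. Symbols and positions came from GENCODE M21, which held 40340 of 41388 gene IDs (97.5%).

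Of the 24 libraries 23 were read. The file of control fed replicate 6 as held here was incomplete and was not used, and control fasted replicate 4 entered an alternative only. The counts of the remaining 22 libraries, in 4 groups, were fitted together with edgeR 4.0.16 (R 4.3.3), using TMM factors, filterByExpr (count minimum 10, total minimum 15) and the robust quasi-likelihood test, with Benjamini-Hochberg adjustment over 16757 genes and a threshold of 0.05. The fit was also run on simulated counts with known changes, and the share of these changes that it recovered is not reported here. Exact permutation tests of Gpt2 and Gpt on log2 CPM (prior count 2) used Python 3.11.15 and scipy 1.17.1.

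Alternatives were DESeq2 1.42.0, limma 3.58.1 with sample weights, other scalings and filters, title numbers as a block, and leaving out each library. The text names Gpt2, Gpt and the alanine list, the 20 genes of smallest p, up to 4 members of smallest p per list, the most different genes without overlap (up to 10 per direction) and genes called in the interaction. Alb, Asns, Fgf21, Gdf15, Phkb, Mylk3, Neto2, Serpina7 and Tgm2 lie outside that rule and were chosen after their values were seen. Some genes that the rule names are not reported here. Members and lists were chosen with earlier results of these data known.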

Additional observations from a re-analysis of the deposited data

Results flagged for a closer look

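In fasted livers the highest or lowest library of a group was tested for its gap to the nearest other library with Dixon's criterion on log2 CPM, 232 tests in all. Chance flags about 1 in 20 where genes are chosen without regard to their values. The genes tested here were chosen in part by their values in these libraries, Tgm2 among them, so that this rate is not their baseline. The 15 results that met it included 8 in knockout fasted replicate 4. In that library Slc37a4 stood at 268 CPM (135 to 164 in the other knockout libraries), Osbpl5 at 8.27 (1.85 to 3.16), Ak4 at 88.4 (43.9 to 54.2), Acaca at 134 (48.1 to 69.0), Sel1l at 248 (142 to 165), Lcn2 at 167 (7.15 to 15.9) and Tgm2 at 419 (51.6 to 88.1). Eci1 was the exception in direction, at 115 CPM there and 148 to 162 CPM in the other knockout libraries.

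Single values in other knockout libraries were Pdk2 at 74.9 CPM in replicate 5 (114 to 139 in the others) and Bend7 at 5.83 CPM in replicate 1 (8.23 to 9.12 in the others). Among control libraries, Got1 stood at 514 CPM in replicate 3 (290.1 to 337 in the others) and Psmd13 at 64.1 CPM in replicate 2 (54.8 to 57.0). Control replicate 5 had Pdk2 at 78.0 CPM (109.7 to 125 in the others) and Acot1 at 370.4 CPM (152 to 191), and control replicate 6 had Mrpl46 at 20.2 CPM (13.4 to 14.8).

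The genotype effect on Zfp871 differed between fasted and fed livers by -1.42 in log2, with an adjusted p of 0.0284 in edgeR's test of the interaction. Outside the libraries compared, the kidney tubule markers of control fasted replicate 4 summed to 34218 CPM, scaled by its library total only. The other fasted control libraries held 2.19 to 36.5 CPM.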

How the results depend on the processing

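The fasted comparison called 1 gene, Gpt2, under every alternative but 2, and in each fit without 1 library (1 to 1). DESeq2 called 3 (Colgalt2, Gh and Gpt2). With control fasted replicate 4 included, edgeR called 0, with 1164 genes at an unadjusted p under 0.05, and the log2 fold change of Gpt2 was -2.40 with an adjusted p of 0.24. In the exact permutation test Gpt2 lay between -2.81 and -2.51 when each library was left out, and at -1.99 (p = 0.0195) with that library. Gpt lay between -0.051 and 0.17, and at 0.68 (exact p = 0.429).

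In fed livers the count of called genes was 68 by DESeq2, 5 with library totals, 2 without mitochondrial and the 20 most abundant genes, 14 without a filter, 0 with control fasted replicate 4 and 1 to 13 without 1 library each. The interaction count was 6 by DESeq2, 0 with that library and 0 to 1 without 1 library each. The cause was not tested. Without mitochondrial genes, the median of that list has no value. No paired analysis was possible because the titles carry no number shared between groups. Clusters of near title numbers as a random block (10 clusters, correlation -0.013) left 1 gene called in fasted livers.

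With 5 or 6 libraries per group, low genes were measured loosely, as the standard errors show. Control fasted replicate 4, knockout fasted replicate 4 and the incomplete file limit the groups.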
